A study of Mus musculus with 8 samples.

Results

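The replication-dependent histone genes lie in clusters and encode the H1, H2A, H2B, H3 and H4 proteins that package newly copied DNA. They were measured here in the tibialis anterior (TA), a hindlimb muscle, of wild-type (WT) and dystrophic mdx5cv mice. Members were the genes whose name in the GENCODE M21 mouse annotation starts with *Hist1h*, *Hist2h*, *Hist3h* or *Hist4h*, without the 1 name that ends in -ps. This gave 69 of the 55401 genes in the table. The deposited table carries the newer symbols (*H1f2* for *Hist1h1c*) for most of these genes, and 9 rows (*Hist1h2al*, *Hist1h2an*, *Hist1h2ao*, *Hist1h2ap*, *Hist1h2bp*, *Hist1h2bq*, *Hist1h2br*, *Hist1h4m* and *Hist1h4n*) still carry the older name. The others were found by their gene ID, and the symbol of the table is used below, with the older name at the main genes. The 69 genes comprise 6 H1, 20 H2A, 18 H2B, 12 H3 and 13 H4 genes, and 67 are annotated as protein coding.

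Total RNA of 8 muscles was sequenced, 4 from WT mice and 4 from mdx5cv mice, all of the C57/Bl6 strain and 6 months old. Mice of the mdx5cv line carry a mutation in *Dmd*, the dystrophin gene, in every cell and serve as a model of Duchenne muscular dystrophy (DMD), and the study used males unless it said otherwise. The libraries came from a stranded total RNA kit, which does not select RNA by its poly(A) tail. Whole muscles were used, so each value sums muscle fibers and all other cells of the tissue, and fewer cells of a type cannot be told apart from less RNA per cell. The muscles are numbered 1 to 4 in each group without a statement that each came from a separate mouse, so p-values measure the spread between these samples, which may be technical. The libraries held 13175524 to 14921057 reads on genes, and the authors' size factors were 0.873 to 0.944 for the WT and 1.06 to 1.25 for the mdx5cv libraries. *Dmd* itself had 6954 ± 857 normalized counts (SD, n = 4) in WT and 3964 ± 388 in mdx5cv muscle, a log2 fold change of -0.81 (SE 0.119, adjusted p = 0.000177), with no overlap.

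The main histone genes are switched on as a cell copies its DNA. Their mRNAs have no poly(A) tail and end just after a short stem-loop, which the stem-loop binding protein SLBP holds through processing and translation and until the mRNA is degraded after replication. A few can also be read past the stem-loop to a poly(A) signal, which is a known property of histone genes in differentiated cells. Adult muscle fibers do not divide, whereas satellite cells, macrophages and fibroblasts can divide in injured muscle.

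The stem-loop was found in the annotated transcripts of 46 of the 69 genes (66.7%) and of 110 of all 21897 protein-coding genes with a transcript sequence (0.502%). A transcript model that stops before the stem-loop would not show it, so the other members may hold one outside their model. The sequence AATAAA stood in the last 50 bases of the longest transcript of 12 members (17.4%), against 56.5% of all these protein-coding genes. The stem-loops of genes on which the results turn are given here as DNA, 5′ to 3′, from the GENCODE M21 transcripts. They include a gene that was high in WT muscle (*H1f2*), the gene that fell most (*H4c9*) and genes with the largest rises (*H3c3*, *H2ac4*, *H2bc14*). The search allowed only known variants of the 16-base consensus, so it cannot show how much the element varies. Capitals mark the 16 bases of the stem-loop and lower case the 5 bases on either side.
*H1f2* (Hist1h1c): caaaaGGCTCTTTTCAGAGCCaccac
*H1f3* (Hist1h1d): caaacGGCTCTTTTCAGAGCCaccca
*H4c9* (Hist1h4i): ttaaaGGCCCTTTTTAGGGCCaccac
*H4c3* (Hist1h4c): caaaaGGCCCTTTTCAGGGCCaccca
*H4c2* (Hist1h4b): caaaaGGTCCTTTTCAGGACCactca
*H2ac4* (Hist1h2ab): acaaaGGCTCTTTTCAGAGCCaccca
*H2bc14* (Hist1h2bm): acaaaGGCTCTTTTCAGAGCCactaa
*H3c3* (Hist1h3c): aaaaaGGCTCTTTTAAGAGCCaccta
The form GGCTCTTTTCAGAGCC was held by 26 genes, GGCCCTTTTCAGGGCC by 7 and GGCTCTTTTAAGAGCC by 6. The forms of *H4c9* and *H4c2* were held by 2 genes each. The annotated transcript ran on after the stem-loop for 840 bases in *H1f2*, 4884 in *H1f3*, 330 in *H4c9* and 454 in *H4c3*. It ended within 74 bases of it in *H3c3*, 46 in *H2bc14*, 28 in *H4c2* and 11 in *H2ac4*.

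RefSeq promoters (GRCm38.p6) were matched for 54 of the 69 genes. In the 250 bases before the start, on either strand, the octamer ATTTGCAT stood in 24.1% of the members and 1.6% of all 32851 promoters. It was found in 7 of 15 H2A and 6 of 13 H2B promoters and in none of the 6 H1, 10 H3 and 10 H4 promoters. CCAAT stood in 83.3% of the members against 33.8% of all promoters, and TATAAA in 46.3% against 12.4%. The 120 bases before the start are given for 4 genes that rose and 2 that fell, 5′ to 3′ on the strand of the gene, with these 3 motifs, or their reverse complements, in capitals. The motifs do not share bases with each other in these stretches.
*H2bc14*, chr13:21721924-21722043, plus strand: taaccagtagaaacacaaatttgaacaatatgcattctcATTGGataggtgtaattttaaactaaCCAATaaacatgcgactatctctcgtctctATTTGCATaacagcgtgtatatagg
*H2ac4*, chr13:23750968-23751087, plus strand: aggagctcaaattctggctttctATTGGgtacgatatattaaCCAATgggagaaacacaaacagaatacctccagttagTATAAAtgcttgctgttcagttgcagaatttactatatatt
*H3c3*, chr13:23745522-23745641, minus strand: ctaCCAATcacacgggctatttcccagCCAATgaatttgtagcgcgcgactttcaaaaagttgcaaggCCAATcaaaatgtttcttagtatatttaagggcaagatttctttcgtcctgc
*H1f1*, chr13:23763548-23763667, plus strand: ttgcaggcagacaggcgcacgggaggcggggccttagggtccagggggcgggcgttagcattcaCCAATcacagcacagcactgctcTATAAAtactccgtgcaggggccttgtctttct
*H1f2*, chr13:23738687-23738806, plus strand: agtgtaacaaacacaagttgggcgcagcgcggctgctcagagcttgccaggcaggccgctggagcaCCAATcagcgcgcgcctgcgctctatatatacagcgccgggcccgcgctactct
*H4c9*, chr13:22041363-22041482, minus strand: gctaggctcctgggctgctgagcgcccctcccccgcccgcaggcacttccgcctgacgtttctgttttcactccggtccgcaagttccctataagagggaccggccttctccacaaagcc
The 4 promoters of genes that rose all held CCAAT, as did that of *H1f2*, which fell. No motif stood in the 120 bases of *H4c9*, whose TATAAA lay further upstream.

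Many clustered histone genes with few reads in WT muscle rose in mdx5cv muscle, and the 3 members called lower were among the most abundant in WT muscle. The filter described below sets part of this link. A gene with a WT mean under 10 was tested only if it was higher in mdx5cv muscle. Values are normalized counts, the reads of a gene divided by a size factor of the library that the authors set with DESeq2. Of the 69 genes, 61 had at least 1 read, and 41 averaged 10 or more normalized counts over the 8 muscles and were tested with limma on log2(normalized count + 1), with p-values adjusted over all genes tested. A fold change on this scale understates the change of low genes. At an adjusted p under 0.05 with a log2 fold change of at least 1 in size, 22 of the 41 were higher in mdx5cv muscle and 1 was lower (53.7% and 2.44%). Of all 13677 genes tested, 10.3% were higher and 3.27% lower by the same rule. At an adjusted p under 0.05 alone, 24 members were higher and 3 lower, against 20.9% and 20.1% of all genes tested. All 4 mdx5cv muscles lay above all 4 WT muscles for 23 members and below them for 2, against 20.3% and 19.8% of all genes. The median log2 fold change was 1.12 over the tested members and 0.00 over all tested genes, and the members ranged from -1.64 to 4.39. In 14 of the 41, under 50% of the 50-base transcript windows were found in no other gene. Their reads may include those of near-identical copies, and 8 of these 14 were higher past the threshold.

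The filter bears on these counts. Of the 41 genes, 17 had a WT mean under 10 and passed only through the mdx5cv muscles, so these had to be higher there, and all 17 were. They were 2 of the 3 H1 genes that rose past the threshold, 2 of the 4 H2A, all 7 H2B, 2 of the 3 H3 and 4 of the 5 H4 genes. Of the 24 tested genes whose WT mean was at least 10, 5 were higher past the threshold and 1 was lower (20.8% and 4.17%). At an adjusted p under 0.05, 7 were higher and 3 lower, and their median log2 fold change was 0.25. Of all 12995 tested genes with a WT mean of at least 10, 7.13% were higher and 3.44% lower past the threshold. At an adjusted p under 0.05, 2358 of these were higher and 2743 lower, with a median of -0.03. Among the 7 genes with a mean of at least 100 over all muscles (*H1f2*, *H1f4*, *H2bc4*, *H2bc6*, *H4c3*, *H4c4* and *H4c8*), *H1f2* and *H2bc4* were called lower and the other 5 had no call, with log2 fold changes from -0.37 to 0.32. Per kb of exon, *H1f2*, *H4c8*, *H4c3*, *H2bc4*, *H1f4*, *H4c4* and *H4c9* led in WT muscle, with mean normalized counts per kb that ended at 151 for *H4c9*, and the next was *H2bc18* at 63.7. All 3 genes called lower are among them.

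**Figure D1:**
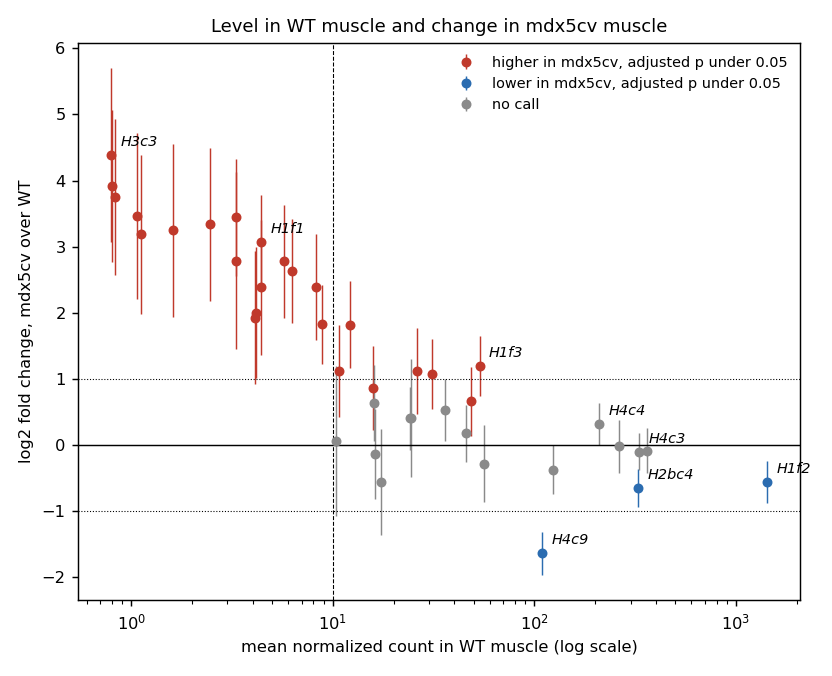
The mean normalized count of each of the 41 tested histone genes in WT muscle (horizontal axis, log scale) is plotted against its log2 fold change in mdx5cv over WT muscle (vertical axis). Bars are 95% confidence intervals of the fit, dotted lines stand at log2 fold changes of 1 and -1, and genes left of the dashed line at 10 passed the filter only through the mdx5cv muscles. All 3 genes called lower lie at WT means above 100, and genes left of the dashed line had to be higher to be tested.

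**Figure D2:**
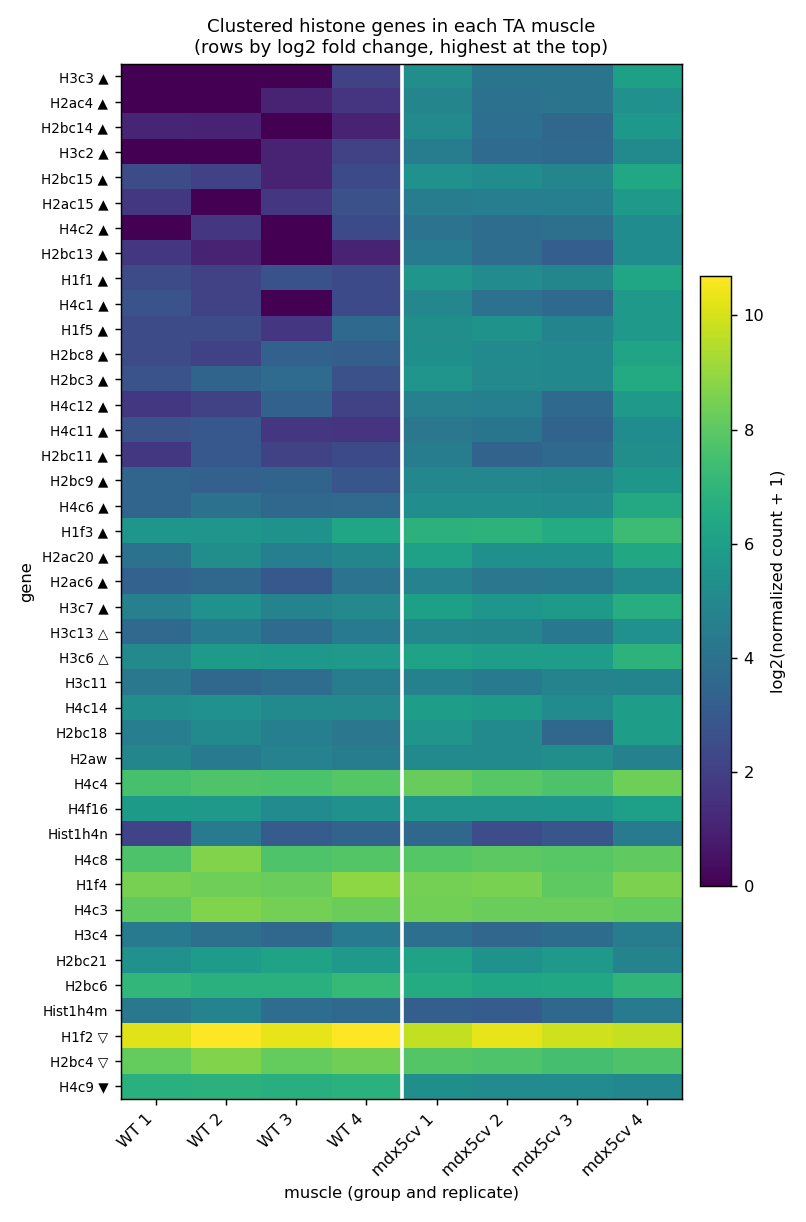
Each row is 1 of the 41 tested histone genes and each column is 1 muscle, with color giving log2(normalized count + 1). Filled triangles mark calls past the threshold and open triangles calls at an adjusted p under 0.05 alone, pointing up for higher and down for lower in mdx5cv. The rows at the top are dark in the 4 WT columns and brightest in the column of mdx5cv replicate 4.

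The linker histones of the H1 class bind the DNA between nucleosomes. *H1f2* (*Hist1h1c*, chr13:23738808-23740367) was the most abundant member in both groups per kilobase of exon, at 918 ± 151 normalized counts per kb (SD, n = 4) in WT and 625 ± 118 in mdx5cv muscle. Its normalized counts were 1193, 1623, 1264 and 1645 in WT replicates 1 to 4 and 833, 1237, 972 and 859 in mdx5cv replicates 1 to 4. The groups overlapped through mdx5cv replicate 2, which was above WT replicate 1. The log2 fold change was -0.56 (SE 0.146, adjusted p = 0.00833). It was -0.20, with no call, when libraries were scaled to equal totals, a scaling under which the median of all genes moved to 0.36. *H1f4* (*Hist1h1e*), the next in level, had 361 ± 73.4 normalized counts in WT and 340 ± 53.6 in mdx5cv muscle, and its log2 fold change of -0.08 had a 95% interval of -0.42 to 0.25 and turned to 0.27 at equal totals.

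The other 3 tested H1 genes were higher in every mdx5cv muscle than in any WT muscle. Of these, *H1f1* and *H1f5* had WT means under 10 and had to be higher to be tested. *H1f3* (*Hist1h1d*) had 48.1, 47.2, 42.0 and 76.3 normalized counts in the WT muscles and 116, 120, 94.6 and 160 in the mdx5cv muscles, a log2 fold change of 1.20 (SE 0.208, adjusted p = 0.000585). *H1f1* (*Hist1h1a*) stood at 4.58, 3.29, 5.53 and 4.24 in WT and at 46.3, 34.9, 28.8 and 78.3 in mdx5cv muscle, a log2 fold change of 3.06 (SE 0.336, adjusted p = 1.86e-05). *H1f5* (*Hist1h1b*) rose from 5.71 ± 4.11 to 40.7 ± 11.1, with a log2 fold change of 2.78. The transcripts of *H1f1*, *H1f3* and *H1f5* shared few 50-base windows with other genes, since 97.7% to 100% of their windows were found in no other gene. The model of *H1f3* is 7425 bases long, of which 4884 lie after the stem-loop, so many of its windows lie past it. The testis histone *H1f6* (*Hist1h1t*) had 1 read in 1 mdx5cv muscle and none in the others.

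H2A and H2B pair in the outer part of the nucleosome core. Of the 20 H2A genes only 5 were tested, of which 4 rose past the threshold. Of these 4, *H2ac4* and *H2ac15* had WT means under 10 and had to be higher to be tested. *H2ac20* (*Hist2h2ac*), the most abundant, had 14.9, 37.3, 23.2 and 28.6 normalized counts in WT and 68.6, 40.6, 40.5 and 81.5 in mdx5cv muscle, a log2 fold change of 1.13 (SE 0.301, adjusted p = 0.00927). *H2ac4* (*Hist1h2ab*) was near absent from WT muscle, with 3 reads over the 4 muscles against 116 in the mdx5cv muscles. Its ratio of reads between the groups, corrected for the size factors, was 31.2, with an exact 95% counting interval of 10.4 to 154. *H2ac15* (*Hist1h2ak*) rose from 2.45 ± 2.17 to 30.2 ± 15.6 and *H2ac6* (*Hist1h2ac*) from 10.7 ± 3.91 to 24.1 ± 7.26, with log2 fold changes of 3.34 and 1.12. *H2aw* (*Hist3h2a*), on chromosome 11, had a log2 fold change of 0.41 (95% interval -0.07 to 0.88) and no call, and was called higher at equal totals (0.75, adjusted p = 0.0162).

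Among the H2B genes 7 of 11 tested were higher past the threshold, and the most abundant was lower. All 7 had a WT mean under 10, so they had to be higher to be tested. Of the 4 with a WT mean of at least 10, 0 were higher and 1 was lower at an adjusted p under 0.05. *H2bc4* (*Hist1h2bc*, chr13:23684199-23692908) had 288, 409, 287 and 326 normalized counts in WT and 226, 214, 182 and 209 in mdx5cv muscle. All 4 mdx5cv muscles were below all WT muscles, with a log2 fold change of -0.64 (SE 0.133, adjusted p = 0.00198), which was -0.29 with no call at equal totals. No stem-loop was found in its annotated transcript. *H2bc6* (*Hist1h2be*) had 123 ± 17.9 in WT and 95.9 ± 21.9 in mdx5cv muscle (log2 fold change -0.37, adjusted p = 0.0998), and was called lower without mdx5cv replicate 4 (adjusted p = 0.0223) or under median centring (0.0340). *H2bc14* (*Hist1h2bm*) had 1.15, 1.10, 0 and 1.06 normalized counts in WT, which is 1 read in each of 3 muscles, and 32.4, 14.2, 10.8 and 50.3 in mdx5cv muscle. The ratio of its reads was 33.6, with a counting interval of 11.2 to 165. *H2bc15* (*Hist1h2bn*) stood at 4.58, 3.29, 1.11 and 4.24 in WT and at 40.8, 35.8, 27.9 and 82.3 in mdx5cv muscle, a log2 fold change of 3.44 (SE 0.411, adjusted p = 3.6e-05), though only 13.6% of its 50-base windows were found in no other gene, so that its reads may include those of near-identical copies. The other risers, *H2bc3*, *H2bc8*, *H2bc9*, *H2bc11* and *H2bc13*, had log2 fold changes from 1.83 to 3.19.

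H3 and H4 form the center of the nucleosome core, and H3 carries many of the well-known histone tail marks. Of 7 tested H3 genes, 3 were higher past the threshold and 5 at an adjusted p under 0.05. Of the 3, *H3c2* and *H3c3* had WT means under 10 and had to be higher to be tested. *H3c3* (*Hist1h3c*) had the largest log2 fold change of all members, 4.39 (SE 0.61, adjusted p = 0.000115). It had no read in WT replicates 1 to 3 and 3 reads in WT replicate 4, and stood at 38.0, 17.0, 16.2 and 65.5 normalized counts in the mdx5cv muscles. The ratio of its reads was 42.8, with a counting interval of 14.4 to 210. *H3c2* (*Hist1h3b*) rose from a range of 0 to 3.18 in WT to 11.7 to 32.8 in mdx5cv muscle, and *H3c7* (*Hist1h3f*) from 31.0 ± 7.80 to 67.4 ± 22.4. *H3c6* (*Hist1h3e*), the most abundant H3 member per kb, had 32.1, 55.9, 50.9 and 54.0 in WT and 71.3, 60.4, 62.1 and 120 in mdx5cv muscle, and its log2 fold change of 0.66 had an adjusted p of 0.0421. That call was lost when WT replicate 1 or 3 or mdx5cv replicate 1 or 4 was left out, where the adjusted p lay between 0.0660 and 0.130, and under median centring (0.0612) or without the variance trend (0.0673). *H3c13* was higher at a log2 fold change of 0.86 (adjusted p = 0.0322), with overlap between the groups. Only 26.6% of the windows of *H3c6* and 20.3% of those of *H3c13* were their own. *H3c4* (*Hist1h3d*) had a log2 fold change of -0.14, with an interval of -0.82 to 0.54, and turned to 0.20 at equal totals.

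All 13 H4 genes were tested, 5 rose past the threshold and 1 fell. Of the 5, *H4c1*, *H4c2*, *H4c11* and *H4c12* had WT means under 10 and had to be higher to be tested. *H4c9* (*Hist1h4i*, chr13:22040636-22041362) was the only member lower past the threshold. Its normalized counts were 108, 115, 103 and 112 in WT and 38.9, 34.9, 34.2 and 30.4 in mdx5cv muscle, with a wide gap between the groups. The log2 fold change was -1.64 (SE 0.149, adjusted p = 5.24e-06), and -1.29 at equal totals. Its windows were 71.1% its own. *H4c3* (*Hist1h4c*) and *H4c8* (*Hist1h4h*) were more abundant than *H4c9*, at 404 ± 68.0 and 560 ± 203 normalized counts per kb in WT and 373 ± 28.7 and 530 ± 31.8 in mdx5cv muscle. Neither was called, with log2 fold changes of -0.10 (interval -0.38 to 0.18) and -0.02 (interval -0.42 to 0.38), which turned to 0.25 and 0.34 at equal totals. *H4c2* (*Hist1h4b*) had 0, 2.19, 0 and 4.24 normalized counts in WT and 15.7, 13.2, 14.4 and 36.0 in mdx5cv muscle, a log2 fold change of 3.25 (SE 0.609, adjusted p = 0.0010). *H4c1*, *H4c6*, *H4c11* and *H4c12* were higher with log2 fold changes from 1.82 to 2.79. The H4 genes encode near-identical proteins, so these differences in RNA say nothing of the H4 protein.

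**Figure D3:**
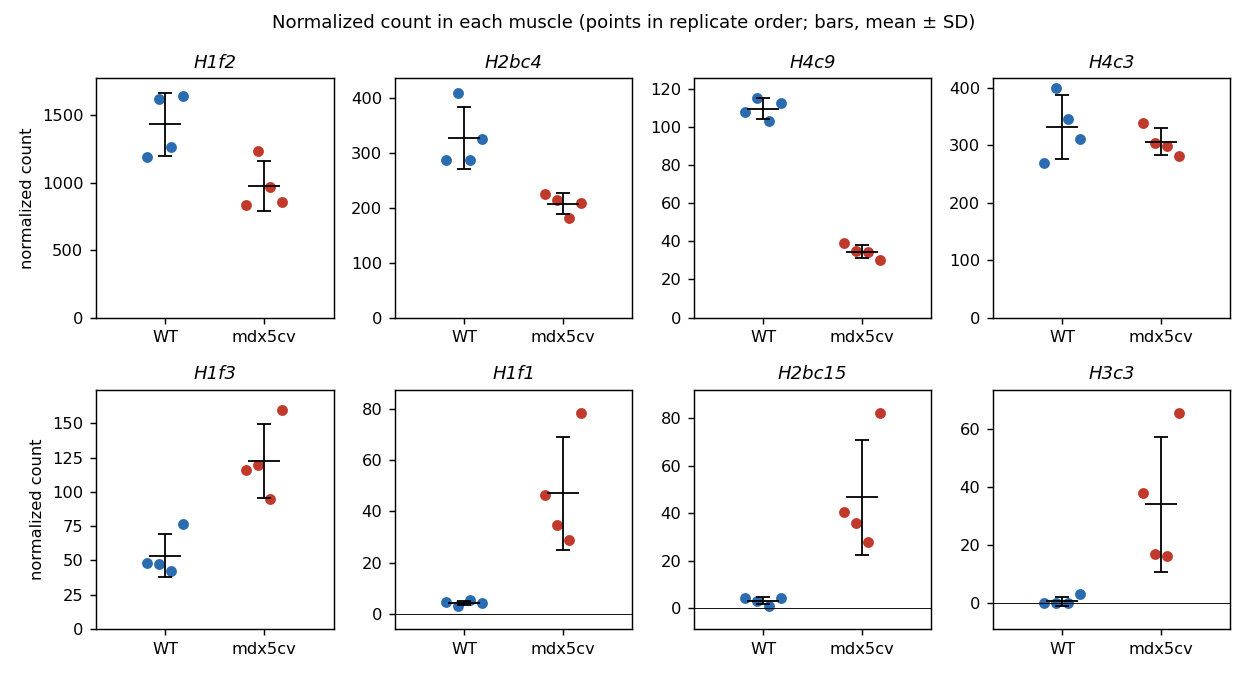
Normalized counts are shown for 8 histone genes, with a point for each of 4 WT and 4 mdx5cv muscles in replicate order and bars giving the mean ± SD. *H4c9* and *H2bc4* lie lower in all 4 mdx5cv muscles, *H4c3* overlaps between the groups, and *H1f3*, *H1f1*, *H2bc15* and *H3c3* lie higher in all 4, highest in mdx5cv replicate 4.

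The summed histone RNA differed less between the groups than many of its members did. The 69 genes summed to 3690 ± 492 normalized counts in WT and 3874 ± 543 in mdx5cv muscle (SD, n = 4), a ratio of 1.05 with overlapping groups. Without *H1f2* it was 2259 ± 262 and 2898 ± 614, a ratio of 1.28. The sum of the H2A genes was 71.1, 81.2, 69.7 and 92.2 in WT and 240, 213, 185 and 331 in mdx5cv muscle, and that of the H3 genes 116, 152, 127 and 167 against 315, 229, 238 and 480. All mdx5cv muscles lay above all WT muscles for these 2 classes, with ratios of 3.09 and 2.24. The sums of H1, H2B and H4 overlapped between the groups, with ratios of 0.822, 1.17 and 1.07. The near-equal total depends on the scaling. As a share of all reads, which is the scaling to equal totals, the 69 genes gave 0.0233% ± 0.00386 in WT and 0.0317% ± 0.00741 in mdx5cv muscle. Without *H1f2* these shares were 0.0143% ± 0.00202 and 0.0238% ± 0.00749. The share of the H1 sum was 0.0118% ± 0.00242 in WT and 0.0123% ± 0.00159 in mdx5cv muscle, so the direction of the H1 sum turned.

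The make-up of the histone reads moved with this. *H1f2* gave 36.9% to 40.7% of the reads of all members in the WT muscles and 18.8% to 32.0% in the mdx5cv muscles. H2A genes gave 2.13% ± 0.147 of these reads in WT and 6.19% ± 0.771 in mdx5cv muscle, and H3 genes 3.80% ± 0.254 and 8.01% ± 1.92. Between 46 and 53 members had a read in a WT muscle and between 56 and 59 in an mdx5cv muscle. The reads of all members numbered 2819 to 3816 in a WT muscle and 3620 to 5733 in an mdx5cv muscle, so many members rest on few reads.

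**Figure D4:**
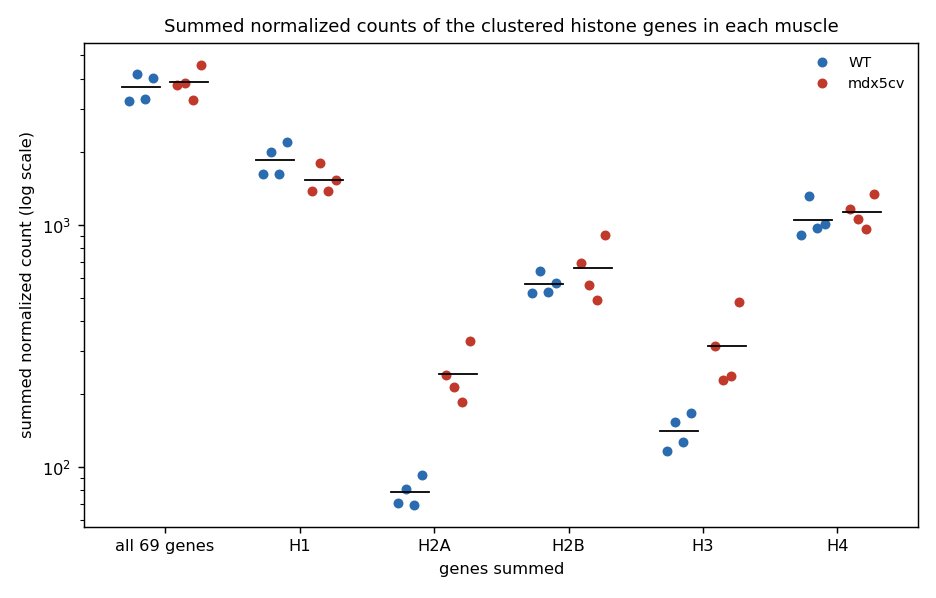
The summed normalized count of all 69 genes and of each class is shown for each muscle on a log scale, with 4 WT and 4 mdx5cv points and a line at each mean. The groups are apart for H2A and H3 and overlap for all 69 genes, H1, H2B and H4.

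The members were also grouped by where their annotated transcript ends, a grouping made after the values were seen and given without a test. Of 12 tested genes whose transcript ended within 100 bases of the stem-loop, 9 were higher past the threshold, with a median log2 fold change of 2.16, and of 18 whose transcript ran on for over 100 bases 7 were, with a median of 0.47. The filter weighs on this split, since 7 of the 12 and 4 of the 18 had a WT mean under 10 and passed only by being high in mdx5cv muscle. Among genes with a WT mean of at least 10, 2 of 5 that ended at the stem-loop and 3 of 14 that ran past it were higher past the threshold, with medians of 0.06 and 0.25. The 5 were *H4c6* (1.82), *H2ac20* (1.13), *Hist1h4n* (0.06), *H4c8* (-0.02) and *Hist1h4m* (-0.55), and only 14.4% and 10.2% of the windows of *Hist1h4n* and *Hist1h4m* were their own. Of 10 tested genes with neither a stem-loop nor AATAAA near the end of the annotated transcript, 6 were higher past the threshold, and these 6 had WT means under 10. Among them, the models of *H4c12*, *H2bc13*, *H2bc15* and *H2ac15* were only 312, 381, 381 and 393 bases long. A stem-loop beyond the end of such a model would be missed, so this group may reflect the annotation. *H2bc21* (*Hist2h2be*), with AATAAA and no stem-loop in its annotated transcript, was at -0.28 (interval -0.86 to 0.30), and at 0.07 at equal totals.

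Sums take in all members, those under the filter included. Genes that ended at the stem-loop summed to 355 ± 119 normalized counts in WT and 652 ± 218 in mdx5cv muscle, a ratio of 1.83, with an overlap that came from *H4c8* in WT replicate 2. Genes that ran past it summed to 2861 in WT and 2603 in mdx5cv muscle on average, a ratio of 0.910, but gave 0.0181% of all reads in WT and 0.0212% in mdx5cv muscle, so that the direction turned at equal totals. Exon length moved with these groups and with level. Of 27 tested genes of at most 1000 bases 18 were higher past the threshold, but 16 of the 27 had a WT mean under 10, against 1 of 14 longer genes, of which 4 were higher. Among genes with a WT mean of at least 10, 2 of 11 shorter and 3 of 13 longer genes were higher past the threshold. The parts of transcript end, length and level in the result cannot be told apart here.

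**Figure D5:**
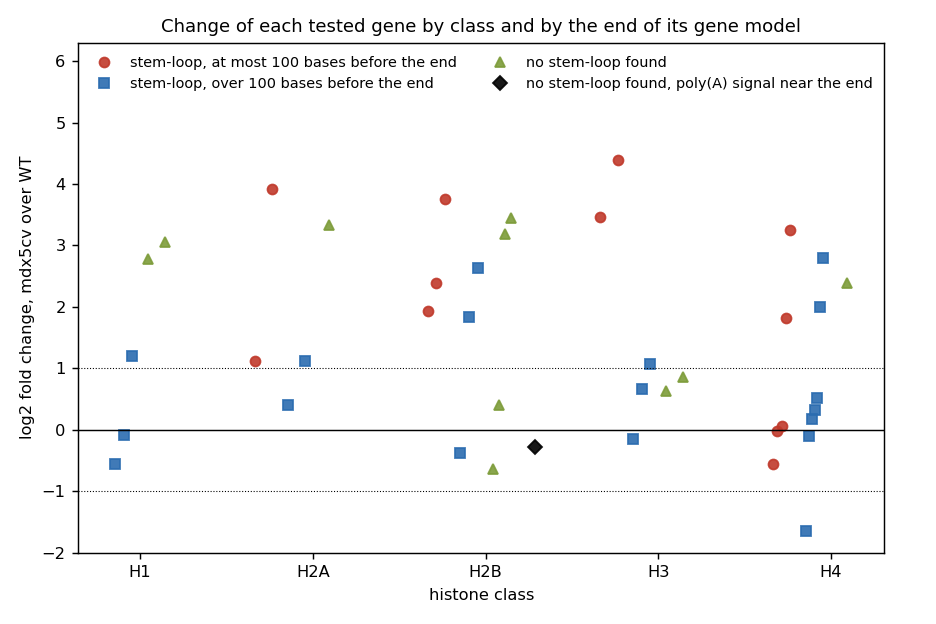
The log2 fold change in mdx5cv over WT muscle of each of the 41 tested genes is shown by histone class, with the symbol giving the end of the annotated transcript. Genes that end within 100 bases of the stem-loop lie above 1 in the H2A, H2B and H3 classes, though 7 of the 12 tested genes of this kind passed the filter only through the mdx5cv muscles, and *H4c9*, at -1.64, is the only point below -1.

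Both parts of the large cluster on chromosome 13 held genes that rose. Between 23.5 and 23.9 Mb (mm10), 13 of 22 tested genes were higher past the threshold, and between 21.7 and 22.0 Mb 8 of 12 were higher and 1, *H4c9*, was lower. Of these, 9 of the 22 and 8 of the 12 had a WT mean under 10, so all 8 risers of the second part had to be higher to be tested. Among genes with a WT mean of at least 10, 4 of 13 in the first part were higher past the threshold, and the 4 in the second part were *H4c9*, *Hist1h4m*, *Hist1h4n* and *H3c11*, with *H3c11* at 0.64 and no call. On chromosome 3, where no tested gene had a WT mean under 10, 1 of 5 was higher past the threshold (*H2ac20*), and neither the 1 tested gene on chromosome 11 (*H2aw*) nor that on chromosome 6 (*H4f16*, 0.18) was called. Within 1000 bases of each other, 14 pairs of members were read away from each other, 13 of them an H2A with an H2B gene, and both genes were tested in 4 pairs. *H2ac15* and *H2bc15*, 295 bases apart, had log2 fold changes of 3.34 and 3.44, and *H2bc9* and *H3c7* 1.83 and 1.07. *H2ac6* was higher (1.12) and *H2bc4* lower (-0.64) with 250 bases between them. *H2ac20* was higher (1.13) with no call for *H2bc21* (-0.28), 238 bases away. Neighbors therefore had unlike values in 2 of the 4 pairs, for which the difference within the pair was not tested.

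The 28 members that were not tested averaged under 10 normalized counts over the 8 muscles. Of these, 20 had reads, and 19 of the 20 had a higher mean in mdx5cv muscle, with all mdx5cv muscles above all WT muscles in 11. The same counts were not made over all other genes under the filter, so they cannot be taken as particular to histone genes. Their summed count was 24.3 to 35.0 in WT and 96.3 to 229 in mdx5cv muscle. *H2bc7* (*Hist1h2bf*) had no read in any WT muscle and 13, 11, 1 and 27 reads in the mdx5cv muscles, at least 14.0-fold higher when 3 counts are allowed over the WT group. *H2bc12* had 1, 1, 1 and 3 reads in WT and 16, 11, 13 and 44 in mdx5cv muscle. The processed pseudogene *Hist1h2al*, on chromosome 13 outside the cluster, had 29 reads in mdx5cv replicate 2 and at most 1 in any other muscle. Of the 8 genes without any read, 6 had under 15% of their windows to themselves, so reads from them may have been placed elsewhere or left out. The others were the testis histones *H2ac1* and *H2bc1*. These untested genes were named after their values were seen.

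The same muscle stood at the top in all 22 genes that rose past the threshold, mdx5cv replicate 4, and mdx5cv replicate 3 was the lowest mdx5cv muscle in 16 of them. Without replicate 4, 19 genes were higher past the threshold. The sum of 24 genes of mitosis was 1361, 1013, 841 and 2275 in mdx5cv replicates 1 to 4 and 158 to 273 in WT muscle, and that of 42 genes of DNA replication 2460, 2306, 2198 and 3104 against 1738 to 1873. The sums of the markers of macrophages, regenerating fibers, fibroblasts and satellite cells were also highest in mdx5cv replicate 4. All 7 macrophage markers were higher past the threshold, and their sum was 5626, 4590, 3956 and 9619 in mdx5cv replicates 1 to 4 against 536 to 803 in WT muscle. All 6 markers of regenerating fibers were higher, with sums of 2514 to 9398 against 198 to 229, and 3 of 5 fibroblast markers, with sums of 17446 to 31390 against 5196 to 7870. Of these, 1 macrophage marker and 2 markers of regenerating fibers had a WT mean under 10, so they had to be higher to be tested. The other 6 macrophage markers and 4 markers of regenerating fibers could have gone either way. Of 5 satellite cell markers 2 were higher at an adjusted p under 0.05, with sums of 660 to 1177 against 425 to 525.

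Markers of lymphocytes and neutrophils were too low to test. The sums were 22.2 to 48.7 against 4.42 to 5.48 for 6 T cell markers, 1.80 to 12.8 against 4.42 to 17.5 for 4 B cell markers, and 1.85 to 6.39 against 2.12 to 7.68 for 5 neutrophil markers, of which *Elane* was at 0 in all muscles. All 4 endothelial markers were lower (1438 to 1878 against 2394 to 2882), as were the 3 tested of 5 erythroid markers (283 to 609 against 600 to 1087). Of 6 muscle fiber markers 2 were lower, with sums of 2.04e+06 to 2.78e+06 against 2.99e+06 to 3.19e+06, but they gave 20.5% ± 1.31 of all reads in mdx5cv and 19.7% ± 1.48 in WT muscle, so the direction of their sum turned at equal totals. The part of any of these cell types in the histone values was not tested.

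A list of histone genes that are not members, chosen as genes not tied to DNA replication, showed no common direction. Whether each gene of this list is made outside S phase or from an mRNA with a poly(A) tail was not tested, *Cenpa* and *H2ax* included. Of 9 tested genes of 11, 2 were higher and 1 was lower at an adjusted p under 0.05, against 20.9% and 20.1% of all genes tested. Their median log2 fold change was 0.01. *Cenpa*, the H3 variant of centromeres, was higher at 56.5 ± 10.6 against 15.7 ± 4.89 normalized counts, with a log2 fold change of 1.82, and so was *H2ax*, the variant that is phosphorylated at DNA breaks, at 48.3 ± 16.5 against 27.6 ± 2.39 (0.73, adjusted p = 0.0289). The *H2ax* call was lost when replicate 3 or 4 of either group was left out, with adjusted p-values between 0.0542 and 0.0901. *H1f0*, the linker histone of non-dividing cells, fell from 949 ± 75.5 to 717 ± 129 (-0.42, adjusted p = 0.0202), with no call at equal totals (-0.06) or without the variance trend (adjusted p = 0.0529). *H3f3a* and *H3f3b*, which encode the replacement histone H3.3, had log2 fold changes of 0.01 and 0.69, and *H2az1*, an H2A variant of promoters, of -0.27. They had no call, with adjusted p-values of 0.937, 0.0667 and 0.0905. *H3f3a* turned to -0.08 under median centring and *H2az1* to 0.08 at equal totals. *H3f3b* was at 135 normalized counts in WT replicate 2 and at 375 to 413 in the other WT muscles. Without WT replicate 2, *H3f3b* was called higher (adjusted p = 0.0353), but its log2 fold change fell to 0.30. It was also called higher without WT replicate 4 (0.0424), with no filter (0.0476), under a replicate block (0.0485) and at equal totals (1.04, adjusted p = 0.00947). *H2az1* was called lower without WT replicate 1 (0.0484) and under median centring (0.0260).

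The factors that make, end or degrade histone mRNA were called lower about as often as all genes. Of 19 tested genes of 21, 2 were higher and 4 were lower at an adjusted p under 0.05, against 20.9% and 20.1% of all genes tested, with log2 fold changes of the tested genes from -0.71 to 0.42 and a median of -0.15. *Slbp*, the stem-loop binding protein, was at 0.18 (adjusted p = 0.406; at equal totals 0.54, adjusted p = 0.0480) and *Npat*, the activator of the histone clusters, at -0.20 (adjusted p = 0.194). *Snrpb*, a core Sm protein, and *Sympk*, a scaffold of the cleavage complex, were lower, at -0.34 and -0.28 with adjusted p-values of 0.0293 and 0.0492. Their directions turned at equal totals (0.02 and 0.08), and both calls were lost without the variance trend (adjusted p = 0.0649 and 0.0940). *Snrpb* also lost its call without WT replicate 2 or mdx5cv replicate 1, 3 or 4 (adjusted p from 0.0520 to 0.0677), and *Sympk* without any muscle other than WT replicate 2 (0.0534 to 0.139). *Upf1*, a helicase that takes part in histone mRNA decay, was higher at 0.42 (adjusted p = 0.0235), with the call lost under median centring (0.0633), without the variance trend (0.0556) and when WT replicate 1 or 3 or mdx5cv replicate 3 was left out (0.0549 to 0.0725).

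Genes of DNA replication and of mitosis held many rises, part of which the filter fixed. Of all genes tested, 10.3% were higher past the threshold, and 20.9% were higher and 20.1% lower at an adjusted p under 0.05. Of 35 tested replication genes of 42, 12 were higher past the threshold, and 19 were higher and 3 lower at an adjusted p under 0.05, with a median of 0.61. Of the 35, 8 had a WT mean under 10. Among the other 27, 5 were higher past the threshold (18.5%, against 7.13% of all genes with a WT mean of at least 10), with a median of 0.43. *Rrm2*, the S-phase subunit of ribonucleotide reductase, was at 2.19 to 6.88 normalized counts in WT and 36.9 to 155 in mdx5cv muscle, and *Ccna2*, cyclin A2, at 0 to 6.36 and 30.6 to 129, with log2 fold changes of 3.96 and 4.03. *Pcna*, the replication clamp, was at 0.30 with no call, and was called higher at equal totals (0.65, adjusted p = 0.0183). *Rrm1*, the large subunit of the same reductase, was lower at -0.33 (adjusted p = 0.0148), and 0.03 at equal totals. *Pola2*, a DNA polymerase alpha subunit, was lower at -0.35 (adjusted p = 0.0449), with a call that was lost with no filter on low values (0.0830), in DESeq2 (0.0693), under a replicate block (0.0542), at equal totals, where the direction turned (0.004), and when WT replicate 1, 2 or 4 or mdx5cv replicate 1, 3 or 4 was left out (0.0730 to 0.0991). Of 21 tested mitosis genes of 24, 18 were higher past the threshold, with a median of 3.25, and 1, *Aurka*, a mitotic kinase, was lower at an adjusted p under 0.05 (-0.97, adjusted p = 0.0259; named after its value was seen). Since 16 of the 21 had a WT mean under 10, only 5 could have gone either way, of which 2 were higher past the threshold. *Mki67*, which marks cycling cells, was at 4.98 and *Top2a*, a DNA topoisomerase, at 5.83.

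Histone chaperones, which carry histones to DNA, had 18 tested genes of 19, with 8 higher and 2 lower at an adjusted p under 0.05 and a median of 0.30, where 1 of the 18 had a WT mean under 10. Of all genes tested, 20.9% were higher and 20.1% lower by this rule. *Chaf1a* and *Asf1b*, which act at the replication fork, were higher past the threshold at 1.05 and 1.52. *Asf1b* had no call without mdx5cv replicate 4 (adjusted p = 0.0578). *Npm1*, a nucleolar chaperone, was higher at 0.33, *Nap1l4* was lower at -0.44, and *Atrx* was at 0.17 with no call. *Npm1* lost its call under median centring (adjusted p = 0.0993) or without mdx5cv replicate 2 (0.0619), and *Nap1l4* at equal totals (-0.08).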

How the data were processed

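Total RNA of 8 TA muscles had been prepared with Trizol and a TruSeq Stranded Total RNA H/M/R kit. Per the submitters' processing notes, the tools included FastQC, Trim Galore 0.6.4, STAR 2.6.0c, SAMtools 1.9, featureCounts, MultiQC 1.6, DESeq2 1.26.0 and R 3.6.2, with the build mm10. Settings for strand and for reads that map to several places are not given in the sources used here, and such reads matter for near-identical histone copies. The deposited values are DESeq2 normalized counts, a signal per gene and sample. Divided by the smallest positive value of their column they gave whole reads for all values (tolerance 0.001), which were used for read counts and for edgeR 4.0.16 and DESeq2 1.42.0 as alternatives.

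Members and lists were chosen with earlier results of these data known. Members were matched by gene ID to names of GENCODE M21 (mm10), since the name column holds newer symbols, and the rule as worded there gives 9 rows. Named genes were, in each class, the 2 highest in mean, the 2 largest rises, every call lower and the smallest change, and in each other list the 3 highest in mean and the 2 largest changes past the threshold, besides some fixed by name. Other called members are named with fewer values or within a range, and genes picked after their values were seen are marked as such. The test was limma 3.58.1 in R 4.3.3 (lmFit and eBayes with a trend) on log2(normalized count + 1) of the 13677 genes with a mean of at least 10, with Benjamini-Hochberg adjustment over them, an adjusted p under 0.05 and a log2 fold change of at least 1 in size. The fit was tested on simulated data. Sums and lists were described without a test. Counting intervals are exact, cover counting error only, and the floor was 3 counts over the group. Alternatives were the pseudocount (0.1 and 10), the filter, the scaling, the variance trend, a replicate block, leaving out each muscle, and the other tools. Stem-loops were searched in M21 transcripts, allowing the known variants of the 16-base consensus, motifs in RefSeq promoters, and windows of 50 bases shared between genes' transcripts.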

Additional observations from a re-analysis of the deposited data

Results flagged for a closer look

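Each of 68 sets of 4 muscles (a named histone gene, *Dmd* or a histone sum, in a group) was examined for a muscle far from the rest by Dixon's criterion. This picked out 4 sets, against about 3.4 that chance would pick (1 in 20), and genes that move together are not independent. On the scale log2(normalized count + 1), *H2ac15* was at 5.77 in mdx5cv replicate 4, with the others from 4.48 to 4.61. *H4c8* was at 8.67 in WT replicate 2, with the others from 7.70 to 7.84. *H2bc14* was at 0.00 in WT replicate 3, with the others from 1.04 to 1.10, which is a difference of 1 read. *H3c3* was at 2.06 in WT replicate 4 and at 0.00 in the other WT muscles, which is a difference of 3 reads.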

How the results depend on the processing

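The counts of higher and lower members held within 1.5 times under most alternatives, and the exceptions follow. With at least 10 normalized counts in every muscle, 21 members were tested, of which 4 were higher past the threshold and 6 at an adjusted p under 0.05. With only the 9 older names of the table, chosen after seeing the data, 2 members were tested and 0 were called in either direction (0 by either rule). With only members of which at least 50% of the windows were unique, also chosen after seeing the data, 14 of 27 were higher past the threshold and 14 at an adjusted p under 0.05. No member was lower (0) at a log2 fold change of -2 or less. At equal totals, 1 member was lower at an adjusted p under 0.05. Leaving out each muscle gave 19 to 23 higher past the threshold, 1 to 1 lower, 22 to 27 higher and 3 to 4 lower at an adjusted p under 0.05. With a replicate block the counts were 22, 1, 24 and 3. The numbers were not taken to pair the samples, since correlations of same-numbered muscles were 0.0309 to 0.146 and of others -0.148 to 0.0741. Without the filter, 33 of 61 were higher past the threshold, and in DESeq2 32. Under equal totals the direction turned for *H1f4* (0.27), *H2bc21* (0.0705), *H3c4* (0.20), *H4c3* (0.25), *H4c8* (0.34), *Sympk* (0.0796), *Snrpb* (0.0191), *Rrm1* (0.0283), *Pola2* (0.00358), *Npat* (0.16) and *H2az1* (0.0836). At equal totals *H2aw*, *H3f3a*, *H3f3b*, *Pcna*, *Atrx* and *Slbp* gained a call as higher. *H3f3a* turned to -0.0836 under median centring. Leaving out each muscle moved *H1f4* from -0.167 to 0.0446, *H4c8* from -0.114 to 0.208 and *H3f3a* from -0.0301 to 0.0557. The cause was not tested. Of the values of 48 named genes under all alternatives, 814 kept direction and call, 50 lost the call, 14 gained it and 18 turned. Depth limits the low members, many of which had at most 3 reads in a WT muscle.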
